A study of Drosophila melanogaster with 2 samples.

Results

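The 8 genes of the Dpp pathway named here, dpp, tkv, put, Mad, Med, shn, brk and Dad, were described as places of Fer3 occupancy in the Drosophila embryo. They were taken by name, 8 of 13968 protein-coding genes of the Ensembl BDGP6 annotation, and every peak with its summit in a gene or within 5 kb of it was counted for that gene. Fer3 is a basic helix-loop-helix transcription factor. It was tagged with GFP at its C terminus in a stably transgenic line, and chromatin of whole 6 to 24 h embryos was precipitated with an antibody against GFP and sequenced in 2 biological replicates. There is 1 group and no second condition, both replicates come from the same line, and whole embryos do not show in which cells a site was bound. The labels do not say which promoter drives the fusion or whether the untagged protein is still present.

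Dpp is a secreted ligand of the bone morphogenetic protein (BMP) family. It binds a complex of the type I receptor Tkv and the type II receptor Put, which phosphorylates the Smad protein Mad. Mad joins the common Smad Med, and the pair enters the nucleus, where it activates targets or, with the zinc finger protein Shn, represses brk. Brk itself represses Dpp targets, and Dad is an inhibitory Smad whose gene is a target of the pathway. In the fly embryo Dpp patterns the dorsal ectoderm and later acts in the mesoderm, the midgut, the tracheae and at dorsal closure.

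The sequences at 6 summits are shown because they lie under the highest peak of the ligand gene, of a receptor gene and of 3 nuclear factor genes, with a lower Dad peak added for its E-boxes. Each is 101 bases of the RefSeq Release 6 genome (dm6 coordinates), read on the strand of the gene and centred on the summit, and none overlaps an exon. Capitals mark any E-box (CANNTG), the site type that basic helix-loop-helix proteins bind.
dpp intron, chr2L:2433588-2433688, plus strand: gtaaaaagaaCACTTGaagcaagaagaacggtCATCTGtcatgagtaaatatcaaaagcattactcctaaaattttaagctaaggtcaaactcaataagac
tkv intron, chr2L:5225755-5225855, minus strand: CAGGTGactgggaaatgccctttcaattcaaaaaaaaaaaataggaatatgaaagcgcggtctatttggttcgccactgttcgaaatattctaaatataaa
Mad intron, chr2L:3153370-3153470, minus strand: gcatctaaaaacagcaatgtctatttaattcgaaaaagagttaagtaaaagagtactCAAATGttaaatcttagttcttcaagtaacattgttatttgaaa
brk upstream, chrX:7307145-7307245, plus strand: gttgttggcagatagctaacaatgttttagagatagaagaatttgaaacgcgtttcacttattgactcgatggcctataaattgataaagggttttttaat
Dad intron, chr3R:17065103-17065203, plus strand: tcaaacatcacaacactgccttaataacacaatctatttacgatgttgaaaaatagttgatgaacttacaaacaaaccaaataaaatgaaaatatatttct
Dad intron nearer the start, chr3R:17057020-17057120, plus strand: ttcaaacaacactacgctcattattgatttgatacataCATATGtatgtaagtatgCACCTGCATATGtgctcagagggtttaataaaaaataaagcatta
The dpp window holds a pair of E-boxes and the Dad window nearer the start holds CATATG at 2 places beside CACCTG. The brk window and the Dad window with the highest peak hold no E-box in these letters. These windows have a GC content between 25.7% and 34.7%.

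The authors deposited 4 peak lists. Each replicate list and the list from both alignments pooled holds 30000 peaks. The list deposited as optimal after a threshold on the irreproducible discovery rate (IDR) holds 5636. Its peaks, called reproducible in what follows, are the highest of the pooled list. The name does not mean a peak in each replicate, since 5381 of the 5636 overlap a peak in both replicate lists. Each peak has a signal value, the authors' measure of height on a scale the sources do not define, and a rank by that value, where 1 is the highest. Both were used within a list only. Library depth is unknown, because no list gives read counts, and both replicates share 1 control alignment. All reproducible peaks at these genes carry the same deposited −log10 q, 4.09, which therefore does not order them.

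Of the 8 genes, 7 had a reproducible summit, against 54% of all protein-coding genes and 65% of the 5081 genes whose window is at least as long as that of brk, the shortest of the 8. The gene put was the one without. Both summits counted for Med lie at promoters of neighbours. Of the 1504 genes with a window at least as long as that of Mad, 1081 had a reproducible summit. The 8 windows held 28 of the 5636 reproducible peaks, and 16 of the 28 lay in shn. This was 10.5 peaks per 100 kb (exact Poisson 95% interval 6.99 to 15.2), against 4.10 per 100 kb over all chromosome arms, a ratio of 2.57 (1.70 to 3.71). Without shn the other 7 genes held 12 peaks, 6.06 per 100 kb (3.13 to 10.6), a ratio of 1.48. The median protein-coding gene held 4.67 per 100 kb in its own window. These intervals cover counting error only, peaks along a gene are not independent, and no test was made on genes chosen by name.

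**Figure D1:**
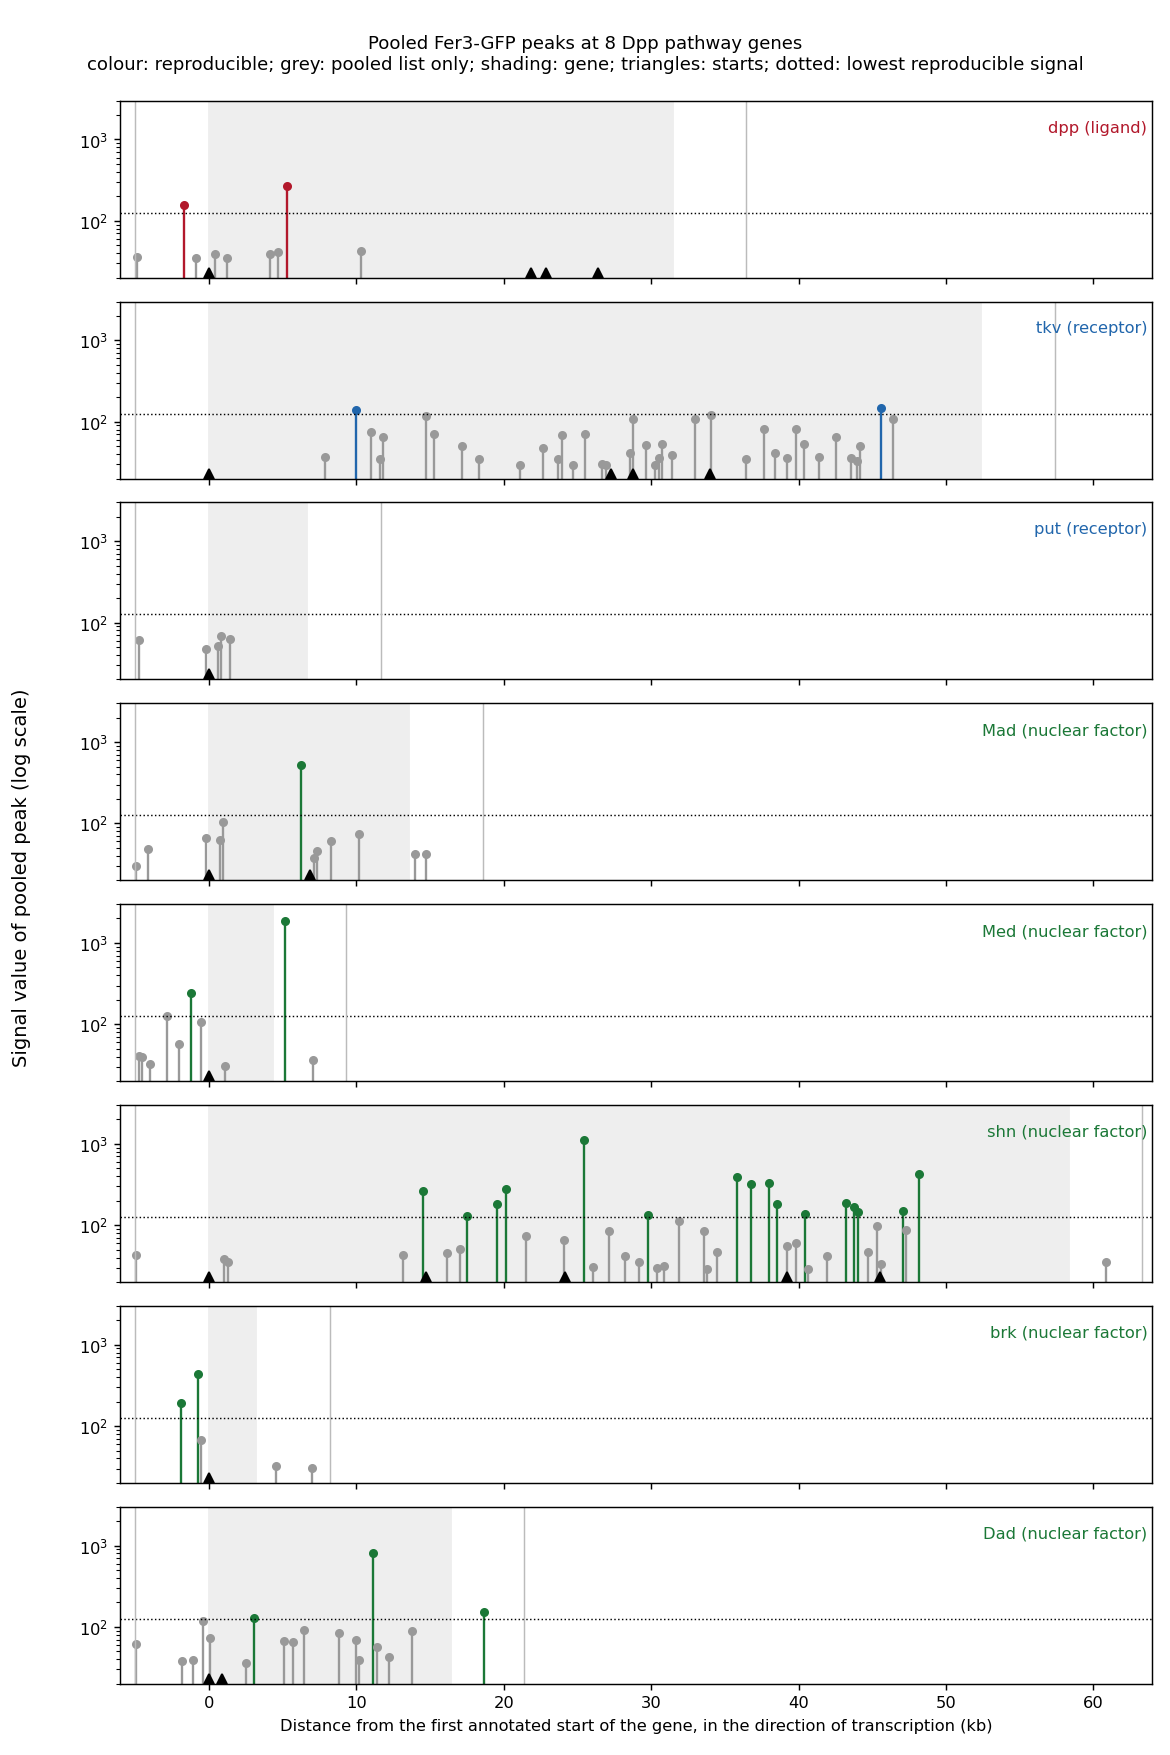
Pooled peaks at the 8 genes, each a stem at the distance of its summit from the first annotated start in the direction of transcription (kb), with the signal value on a log scale; reproducible peaks are coloured by role, the others grey, starts are triangles, the gene is shaded and thin vertical lines bound the window. The 16 reproducible peaks of shn lie 14502 bp or more downstream of its first start, those of brk lie upstream of its start and put has none above the dotted line at 126.

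The ligand gene dpp (FBgn0000490, 2L, 2428372 to 2459823, plus strand) had 2 reproducible peaks, both nearest to the first of its 4 starts. The higher lay in an intron 5266 bp downstream of that start (summit 2433638), with a signal value of 264 and rank 2280 in the pooled list, 113 in replicate 1 and 151 in replicate 2. The other lay between genes, 1707 bp upstream (summit 2426665), with 155 in the pooled list at rank 4435, 42.4 in replicate 1 and 107 in replicate 2. Both peaks were thus present in each replicate, and replicate 1 ranked the intronic one at 1898 and replicate 2 at 2634. The window also held 7 weaker pooled peaks, with signal values from 34.7 to 42.7.

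The 3′ part of dpp was almost empty. From the pooled summit at 2438686 to the end of the window, a stretch of 26.1 kb that holds 3 of the 4 annotated starts, the pooled list had no summit. Replicate 1 had 4 peaks in this stretch, at ranks 7453 (summit 2440494), 25450, 18489 and 21506, the third of them 309 bp from the start at 2454737. Replicate 2 had its last dpp summit at 2438820, and so had none beyond it.

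The type I receptor gene tkv (FBgn0003716, 2L, 5219000 to 5271384, minus strand) held many peaks of which few were high. Its window had 39 pooled peaks, all inside the gene, or 62.5 per 100 kb against 21.8 per 100 kb over all arms, but only 2 were reproducible. These lay in introns, far from the starts of tkv, 11557 bp from one (summit 5225805) and 10006 bp from another (summit 5261378). Both summits are nearer to a start of another gene, the first to TpnC25D at 7551 bp and the other to Cyp4ac1 at 2623 bp. Their pooled signal values were 148 and 141, at ranks 4645 and 4917. In replicate 2 they had 106 and 94.6. In replicate 1 the peak with the nearest summit to the first had only 16.3, at rank 29428, beside a higher one of 48.7 whose summit is at 5225663, and the other had 40.8.

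The highest pooled peak at a tkv start fell just short of the reproducible list. The lowest reproducible signal value of the whole list was 126. A pooled peak 17 bp from the tkv start at 5237362 had 122 at rank 5805, with 39.7 in replicate 1 and 76.3 in replicate 2. One 29 bp from the start at 5242620 had 107 at rank 6770, and its replicate values differed more, with 23.4 in replicate 1 and 104 in replicate 2. The pooled summit nearest to the start at 5244139, 342 bp away, had only 29.3 at rank 29233. Near the most distal start, at 5271384, the pooled list had no summit within 5 kb, and replicate 2 alone had a peak 310 bp away, at rank 20974.

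The type II receptor gene put (FBgn0003169, 3R, 14619030 to 14625703, minus strand) had the weakest leading peak of the 8. Its window held 5 pooled peaks and 3 in each replicate. The highest pooled peak lay in an intron 850 bp from the start (summit 14624853), with 68.8 at rank 11099. Overlapping peaks had 31.3 in replicate 1 at rank 10096 and 38.8 in replicate 2 at rank 13658. The summit of that replicate 2 peak lies 261 bp away, and 21 bp from another pooled summit with 52.1 at rank 15194. A replicate 1 peak lay 3 bp from the put start, with 22.2 at rank 17543. In replicate 2 the highest was a peak of 50.1 at rank 10212, 120 bp from the start of the neighbouring histone gene His4r and 205 bp from that of put. The nearest reproducible summit to the put start lay 16214 bp away. The gene gained a peak, beyond its 3′ end, only when the window was widened to 10 kb.

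Mad (FBgn0011648, 2L, 3146056 to 3159643, minus strand), which encodes the Smad that the receptors phosphorylate, had a single high peak. It lay in an intron, 667 bp upstream of the more 3′ of its 2 starts (summit 3153420), with 518 at rank 826. Both replicates had it, with 147 at rank 1301 in replicate 1 and 366 at rank 691 in replicate 2. The next highest of the 12 pooled peaks was an intronic one 971 bp from the other start, with 105 at rank 6895. The remaining pooled values in the window lay between 30.3 and 73.9. At the outer start, the pooled peak 171 bp away is nearer to a start of the neighbour gkt, and it had 65.5 at rank 11693.

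Med (FBgn0288966, 3R, 31611046 to 31615375, plus strand), the gene of the common Smad, had 2 reproducible peaks in its window and none inside it. The higher was the highest peak of all 8 windows, with 1849 at rank 61, 752 in replicate 1 and 1103 in replicate 2. Its summit, 31616178, lies 5132 bp from the Med start and 18 bp from the start of Mnat9. The other, with 246 at rank 2519, 91.6 in replicate 1 and 134 in replicate 2, has its summit at 31609848, 1198 bp upstream of Med and 33 bp from a start of the cyclin gene CycG, which overlaps Med on the other strand. Both are therefore promoter peaks of neighbours. A pooled peak 518 bp upstream of Med, nearer to CycG, had 108 at rank 6735. A replicate 2 peak 135 bp from the Med start had rank 12883, and neither the pooled list nor replicate 1 had a peak overlapping it or a summit within 500 bp of that start.

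The gene of the zinc finger protein Shn, shn (FBgn0003396, 2R, 11159086 to 11217394, plus strand), stood apart by its number of peaks. It held 16 reproducible peaks, 23.4 per 100 kb, where the median of the 249 genes with a window at least as long was 2 peaks and 2.21 per 100 kb. None of the other 248 reached its density. In all, 5 of the 13968 genes had 16 or more, and the others were kirre with 22, CG1677 with 20, ush with 17 and sbb with 16. The peaks ran over 33.6 kb, from 11173588 to 11207226, with a median distance of 1.87 kb between neighbouring summits. Between the most distal start of shn and the first of these summits, 14502 bp, there was no reproducible peak.

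Of the 16 shn peaks, 15 were intronic and 1 lay in a promoter, 215 bp upstream of the start at 11173803. Their pooled signal values ran from 131 over a median of 187 to 1119. In replicate 1, 15 of them had a peak, from 28.4 over 73.5 to 364, and in replicate 2 all 16, from 46.0 over 130 to 767. The highest lay 1333 bp downstream of the start at 11183224 (summit 11184557), with 1119 at rank 192, 364 at rank 260 in replicate 1 and 767 at rank 154 in replicate 2. The next were those at 11207226 with 427, 11194924 with 390, 11197095 with 333 and 11195826 with 321.

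The replicates differed at some shn peaks. At 11207226, rank 1105 in the pooled list and 1092 in replicate 2 with a value of 273, replicate 1 had no overlapping peak, and its nearest summit lay 878 bp away. At the promoter peak, replicate 2 had 242 at rank 1340, and replicate 1 had 28.4 at rank 11767 with its summit on the other side of the start. The peaks at 11202834 and 11203089, 255 bp apart, overlapped the same replicate 1 peak (summit 11203130, value 105). Of the 4 remaining starts of shn, that at 11183224 had a pooled peak of 65.1 at rank 11790 and that at 11198276 one of 55.0 at rank 14289, each within 30 bp. The start at 11204629 had 2, of 97.7 at rank 7503 at a distance of 200 bp and of 33.6 at rank 25119 at 29 bp. The most distal start had no pooled summit within 1 kb.

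**Figure D2:**
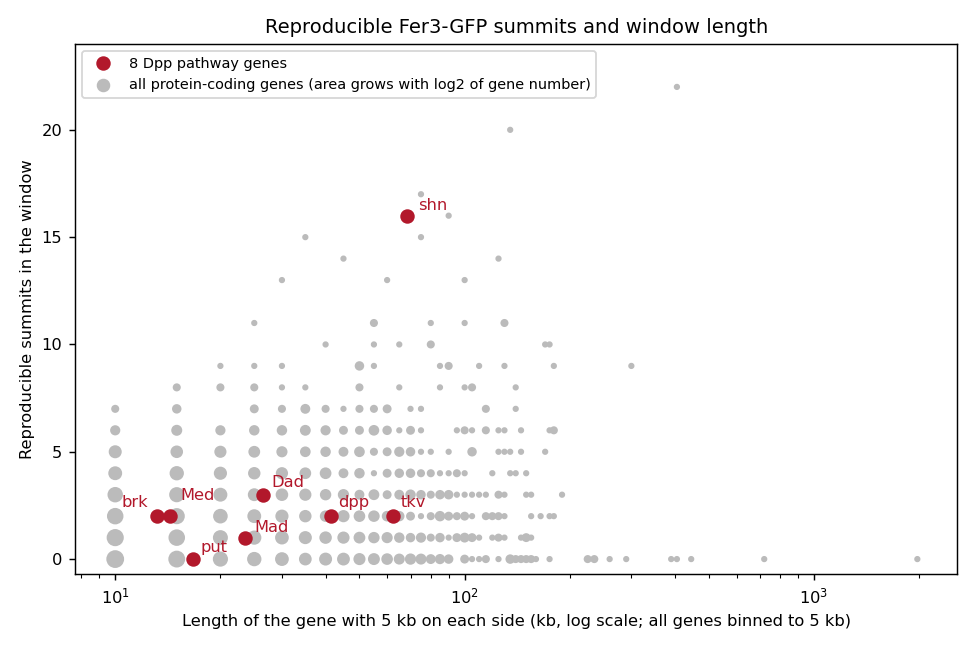
Number of reproducible summits per gene window against window length (kb, log scale), for the 8 genes in red and all protein-coding genes in grey, binned by length. The gene shn, with 16 summits in 68.3 kb, lies above the other 7, which hold 0 to 3 in windows of 13.2 to 62.4 kb.

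The gene of the repressor Brk, brk (FBgn0024250, X, 7307939 to 7311132, plus strand), had both of its reproducible peaks upstream and none inside. The nearer, 744 bp from the start (summit 7307195), had 432 at rank 1081, with 193 at rank 852 in replicate 1 and 240 at rank 1362 in replicate 2. The farther, 1893 bp from the start (summit 7306046), had 192 at rank 3421 and 89.1 in replicate 2. Replicate 1 had 2 peaks across it, of 29.9 (summit 7306139) and 101 (summit 7305938). No other gene has a nearer start to either summit, although both lie in an intron of the long gene CG1677, in which brk is nested, and therefore also count among the 20 of CG1677. A pooled peak with the same interval as the nearer one has its summit at 7307397 and a value of 68.3.

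The inhibitory Smad gene Dad (FBgn0020493, 3R, 17054007 to 17070408, plus strand) had 3 reproducible peaks. By far the highest lay deep in an intron, 10256 bp downstream of the nearest Dad start and 7522 bp from that of Ns1 (summit 17065153), with 817 at rank 362, 313 at rank 369 in replicate 1 and 502 at rank 376 in replicate 2. The ranks of the 3 lists were thus close. Another, 2173 bp from a start (summit 17057070), had 130 at rank 5416, the lowest reproducible value of the 28, with 72.7 in replicate 1 and 61.9 in replicate 2. The last, with 151 at rank 4558, lies outside Dad (summit 17072697) and 22 bp from a start of Ns1, opposite the mitochondrial ribosomal protein gene mRpS11. It had 113 in replicate 2, and replicate 1 had no peak nearer than 4866 bp. A pooled peak 421 bp upstream of Dad fell short of the list, with 118 at rank 6054.

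Sequence elements known from Dpp target genes were searched in the whole windows on both strands. The silencer element, to which Mad, Med and Shn bind together, was found 3 times in the 266 kb of windows, where the genome holds 2.80 per Mb. It occurred once each in the windows of tkv, shn and brk, at tkv in a coding exon of the neighbour Nin. An activating element that Mad and Med bind was found once in shn and 2 times in Dad, against 6.07 per Mb. Those outside exons on arms other than that of shn are given below with 20 bases either side, on the strand of the element, which is in capitals.
brk silencer element, chrX:7305742-7305797, minus strand: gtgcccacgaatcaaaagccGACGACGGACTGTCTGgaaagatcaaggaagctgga
Dad activating element, chr3R:17056340-17056394, plus strand: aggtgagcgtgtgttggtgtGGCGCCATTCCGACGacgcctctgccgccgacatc
Dad distal activating element, chr3R:17065348-17065402, plus strand: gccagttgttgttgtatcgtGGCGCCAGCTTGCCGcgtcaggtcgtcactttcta
The brk element lies 276 bp from the summit of the farther brk peak. The distal Dad element lies 222 bp from the highest Dad summit, and 6 bp from the summit of a separate pooled peak with 56.7 at rank 13794. The other Dad element lies 703 bp from a reproducible summit. No element was within 100 bp of any of the 28 reproducible summits, and over all 5636 such windows of 201 bp the silencer element was in 0.0177% and the activating element in 0.142%. A match in letters is not a bound site.

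Set side by side, the nuclear factor genes held more reproducible peaks per length than the ligand and the receptor genes, and shn held 16 of their 24. The ligand gene had 4.82 reproducible peaks per 100 kb (exact Poisson 95% interval 0.584 to 17.4), the 2 receptor genes 2.53 (0.306 to 9.14) and the 5 nuclear factor genes 16.5 (10.5 to 24.5). The interval of the nuclear factors overlaps that of the ligand, and without shn, at 10.3 (4.46 to 20.3), it overlaps both others. Window lengths differ between the roles, and this was not adjusted for. Beside the median density of genes with a window at least as long, dpp had 4.82 (median 2.36), tkv 3.21 (2.30) and put 0 (4.52). Mad had 4.24 (3.59), Med 14.0 (5.16), shn 23.4 (2.21), brk 15.2 (5.55) and Dad 11.4 (3.39). The nearest start belonged to another gene at 0 of 2 peaks of the ligand, 2 of 2 of the receptors and 4 of the 8 of the nuclear factors other than shn. The median pooled signal value of the reproducible peaks was 209 at the ligand, 145 at the receptors and 219 at the nuclear factors, with 187 at shn alone, below that of the ligand. The best ranks, over unequal numbers of peaks, were 2280 for the ligand, 4645 for the receptors and 61 for the nuclear factors, or 192 without the neighbour's peak beside Med. Of pooled peaks, 2 of 9 at the ligand, 2 of 44 at the receptors and 24 of 88 at the nuclear factors were reproducible, 22.2%, 4.55% and 27.3%, against 18.8% of the whole pooled list. With 1, 2 and 5 genes these are descriptions, and no difference was tested.

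**Figure D3:**
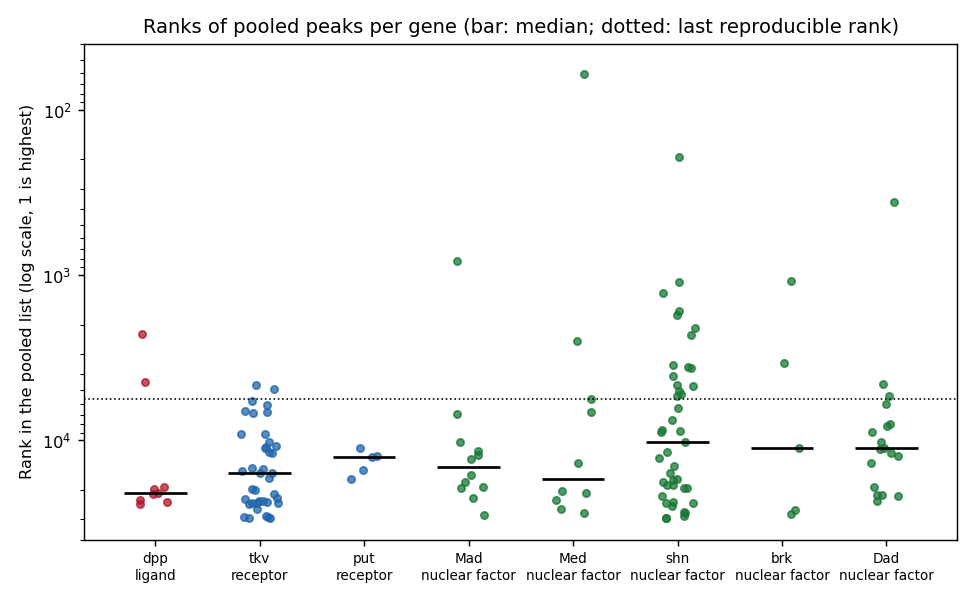
Rank of each pooled peak at the 8 genes on a log scale with rank 1 at the top, coloured by role, with the median as a bar and the last reproducible rank as a dotted line. The medians run from 10305 in shn to 20889 in dpp, and Mad, Med, shn, brk and Dad each have a peak at rank 1081 or higher. That in the Med window lies outside Med, at the start of the neighbour Mnat9.

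The pooled list and both replicate lists covered all 8 genes, but most of the additional peaks were low. A pooled summit was present at 8 of the 8 genes, against 80.8% of all genes, a replicate 1 summit at 8, against 86%, and a replicate 2 summit at 8, against 79.4%. Most genes thus had a summit in each of these lists, as the 8 did. The windows held 141 pooled peaks, 127 of replicate 1 and 150 of replicate 2. With a deposited q of at most 0.05 there were 69, 46 and 85. Of the 141 pooled peaks, 93 overlapped a peak in both replicates (66.0%, exact Clopper-Pearson 95% interval 57.5 to 73.7), against 57.8% of all pooled peaks. Peaks in a replicate list with no overlapping pooled peak numbered 22 in replicate 1 and 25 in replicate 2, the highest at ranks 7012 and 12883.

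The 28 reproducible peaks were mostly found in each replicate. Replicate 1 had an overlapping peak at 26 (92.9%, 76.5 to 99.1) and replicate 2 at 28, against 96.8% and 98.6% of all reproducible peaks. Both that replicate 1 lacked were described above, 1 in shn and 1 beside Ns1. Among the peaks with the nearest summit, 19 in replicate 1 and 24 in replicate 2 were within the 5636 highest of their own list. When any overlapping peak was allowed, 20 of the 28 had one that high in both replicates. The lists were thresholded with these replicates, so this agreement describes the peaks and is not an independent check.

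**Figure D4:**
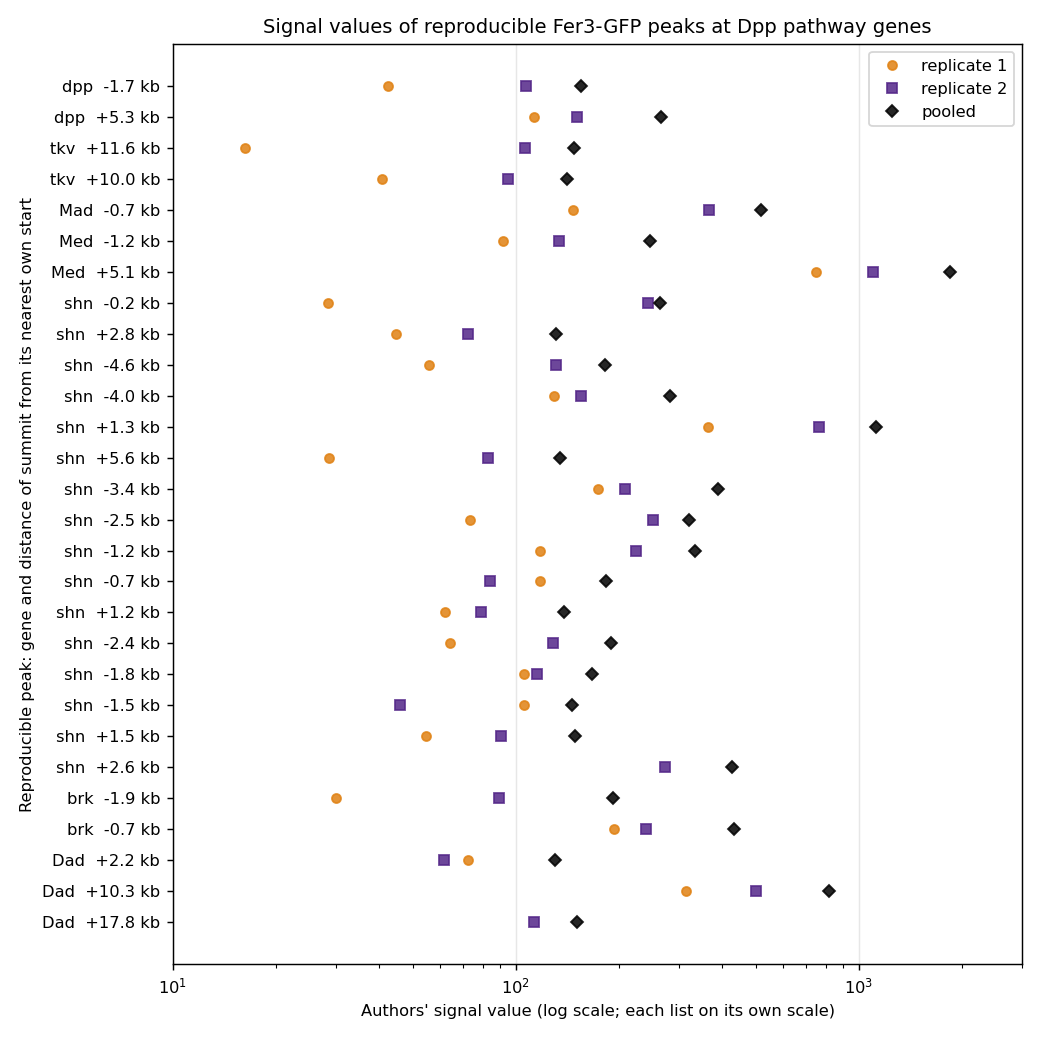
Signal values of the 28 reproducible peaks on a log scale in replicate 1 (circles), replicate 2 (squares) and the pooled list (diamonds), 1 row per peak with its gene and the distance of its summit from the nearest start of that gene. A row without a circle has no replicate 1 peak, and each list has the same 3 highest, the peak at Mnat9 beside Med (1849 in the pooled list), the shn peak 1333 bp from a start (1119) and the Dad peak 10256 bp from a start (817).

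Most of the peaks lay in introns, and shn carried the larger part of them. Introns held 23 of the 28 summits (82.1%, exact Clopper-Pearson 95% interval 63.1 to 93.9), against 38.1% of all 5636, and promoters, the bases within 500 bp of a protein-coding start, held 4 (14.3%, 4.03 to 32.7), against 44.9%. Of those 4, 3 belong to CycG, Mnat9 and Ns1, and only that of shn is at a start of the 8 genes. Of the 23 intronic summits 15 lay in shn. The 2 upstream of brk count as intronic through CG1677 and lie outside brk. The other 7 genes had 8 of 12 in introns (66.7%, 34.9 to 90.1) and 3 of 12 at promoters (25.0%, 5.49 to 57.2), and both intervals hold the share of the whole list. Over all 8 genes, a reproducible summit lay within 500 bp of 1 of the 20 annotated starts, a start of shn, against 20.8% of all protein-coding starts. A pooled summit lay within 500 bp of 12 of the 20, against 48%. Within 1 kb of a start, 3 of the 8 genes, Mad, shn and brk, had a reproducible summit, against 26.2% of all genes. Long genes have more intron in their windows, and this was not adjusted for. In the pooled list introns held 71.6% of the 141 peaks (63.4 to 78.9), against 45.7% of all.

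Sequence at the 28 summits was close to that of the whole list in base composition. GC content averaged 32.6% ± 6.89 (SD, n = 28 windows of 101 bp), against 32.8% ± 9.29 (SD, n = 5636). Any E-box (CANNTG, read on both strands) was in 12 of the 28 windows (42.9%, exact 95% interval 24.5 to 62.8), against 33.9% of all. The E-box CATATG, one of the forms within CANNTG, was in 4, of which 3 in shn and 1 in Dad (14.3%, 4.03 to 32.7), against 3.83%. With 100 bp either side it was still in 4, against 8.06%, which lies inside that interval. CAGCTG was in 0, against 3.55%. The promoter motifs TATCGATA (the DREF site) and GGTCACACT (Motif 1) were in none, against 1.51% and 0.532%. The GC-rich letters GGCGCC and GGCGCT, read here for Mad and Brk, were in none, against 1.42% and 2.36%. The Smad box GTCTG was in 3, against 6.97%, and GAGAG in 2, against 8.96%. A count of 0 of 28 allows a share of up to 12.3% (upper exact 95% limit), above each of these background shares.

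Another 42 genes, of the Dpp pathway or of related signalling, were chosen from general knowledge. Of these, 27 (64.3%) carried reproducible peaks in the same kind of window, against 54% of all protein-coding genes. Of the 33 whose window is at least as long as that of brk, 22 had one (66.7%), against 65% of all genes with such windows. Among other ligands 2 of 6 had one. The peak counted for gbb, which encodes another BMP ligand, had rank 33 but lies 105 bp from a start of eIF6. The highest counted for myo had rank 3984 and lies 739 bp from a start of ey and 895 bp from that of myo. The genes daw, scw, mav and Actbeta had none. All 3 further receptor genes had one, the type II receptor gene wit in its own intron (703 at rank 479, 1108 bp from its start), and babo and sax at promoters of neighbours, at ranks 710 and 1851.

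Among extracellular modulators 10 of 13 had a reproducible peak. The highest were beside cv (rank 545), at the promoter of magu (633, 284 bp from its start), and in introns of the glypican genes dally (1147) and dlp (1275), while tld, tok and tsg had none. Among intracellular and nuclear regulators 5 of 6 had one. They included nej, the gene of the coactivator CBP (1081 at rank 202, 697 bp from its start), the corepressor gene gro (928 at rank 277, 126 bp), Snoo (rank 549, in its intron) and Smox (rank 667, at a promoter of CG17982), and Smurf had none. Among target genes 7 of 14 had one. The highest was in an intron of ush (4577 at rank 5, nearest start that of cbt), followed by one beside bam at the start of RpS27 (rank 108), tin (rank 681, 238 bp from its start) and one at Smg5 beside Ance (rank 997). The targets lab, pnr, rho, salm, salr, vg and zen had none.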

How the data were processed

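Chromatin immunoprecipitation with an antibody against GFP was sequenced in 2 replicates of 1 group. Per the deposited file descriptions, each replicate list was made from 1 alignment and a shared control on dm6, the pooled list from both alignments, and the reproducible list from these 3. No aligner, peak caller or setting is named in the sources used here. The deposited narrowPeak columns used were the signal score, the −log10 q-value and the summit offset. Coordinates are given 1-based. Sequence is from the RefSeq Release 6 genome, the assembly that dm6 names, and genes, starts and exons are those of Ensembl release 115 (BDGP6.54) without transposable elements.

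A peak belongs to a gene when its summit is within 5 kb of the gene span. A summit within 500 bp of a protein-coding start was called promoter, and otherwise exonic (UTR, coding or other), intronic or intergenic, in that order. Peaks of different lists were matched by at least 1 bp of overlap, and where several overlapped, the nearest summit was taken. Shares have exact Clopper-Pearson intervals and densities exact Poisson intervals, both 95% and for counting error only. The members and lists were chosen with earlier results of these data known, so no test was made. All 8 members were described in full. Of the 42 further genes, up to 4 per role with the highest peak and those without a peak were named, of neighbours those nearest to or holding a reproducible summit. The genes with 16 or more peaks, His4r and gkt were named after their values were seen. The window counting was checked on simulated peaks. The tools were scipy 1.17.1, pandas 2.3.3, numpy 2.4.6 and, for figures, matplotlib 3.10.9 under Python 3.11.15. The depth per sample is unknown, since no reads are counted in the lists.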

Additional observations from a re-analysis of the deposited data

How the results depend on the processing

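The number of the 8 genes with a reproducible peak was 7 with windows of 5 kb, 8 with 10 kb, 5 within the gene spans, 5 where the nearest start had to be the gene's own, 6 in the top 50% of the list, and 3 within 1 kb of a start, an alternative added after seeing the data. The 28 peaks became 13 in the top 50% and 12 without shn, also added after seeing the data. Without shn the density ratio moved to 1.48, and in the settings with all 8 genes it stayed between 2.02 and 3.02. Without replicate 1 or without replicate 2, when the other's 5636 highest peaks were used, the number of peaks was 25 to 27, the density ratio 2.29 to 2.47 and the promoter share 8% to 18.5%, with 7 genes in each case. The promoter share, 14.3%, was 28.2% with 10 kb, 25.0% without shn or with promoters of 1000 bp either side, and 4.55% within gene spans or where the nearest start had to be the gene's own, all within its interval. The intron share was 66.7% without shn, added after seeing the data, against 82.1% with it. Peaks found in both replicates numbered 26, 12 in the top 50%, 11 without shn, 20 when only the 5636 highest of each replicate counted, and between 23 and 25 with stricter matching or q. With a deposited q of at most 0.05, pooled, replicate 1 and replicate 2 peaks numbered 69, 46 and 85. With 100 bp either side of a summit, E-boxes were in 19 of 28 windows, against 58.9% of all, and CATATG in 4, against 8.06%. No paired analysis was possible because there is only 1 group. The shared control, the unknown depth and the lists' fixed length of 30000 limit what low peaks show.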
